A study of Mus musculus with 22 samples.

Results

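Usher syndrome genes are genes whose loss in people causes inherited deafness together with degeneration of the retina. Their proteins were first understood in the inner ear, where cadherins form links between the stereocilia of hair cells. A myosin and scaffold proteins hold those links to the actin core, and a giant adhesion receptor forms the ankle links. In photoreceptors several of the same proteins lie around the connecting cilium and at the base of the outer segment, and some are found at synapses. The genes were listed by symbol, as Pcdh15, Cdh23, Myo7a, Ush1c, Ush1g, Adgrv1, Whrn, Clrn1 and Cib2, and each was taken as the row of the deposited expression table whose Ensembl identifier carries that symbol. Of these 9 genes, 7 were measured, among 13812 genes in all. Cdh23 and Ush1c were not analysed here.

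The libraries came from sorted cells of the mouse retina, with RNA amplified in a linear fashion before library preparation. There were 2 libraries in each of 11 groups: rod bipolars and cone bipolars at P13, and bipolars, rods and cones at postnatal days 7, 13 and 30 (P7, P13, P30). Bipolars are ON-bipolar cells, the interneurons that receive input from photoreceptors, per the design text. The sources used here do not state strain, genotype, sex, the marker used for sorting or the number of animals per library, so p-values measure the spread between these libraries, which may be technical. Totals ran from 14.4 to 54.4 Mreads per library, and a floor of 3 reads stood at 0.0541 to 0.170 CPM (reads per Mread of the scaled library). Levels below are CPM with the value of 0 reads taken off, and differences are log2 fold changes from a limma fit to the deposited log2 CPM with Benjamini-Hochberg adjustment over 13405 genes. A gene was called where the adjusted p was under 0.05 and the log2 fold change reached 1 or -1.

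The labels were checked against marker genes. The summed level of 6 rod markers, Nrl and Gnat1 among them, was 8924 to 18652 CPM in rods and at most 658 CPM in any other library. The 6 cone markers, Arr3 and Opn1sw among them, summed to 15500.5 to 47019 CPM in cones and at most 397 CPM elsewhere. The 6 bipolar markers, Grm6 and Trpm1 among them, summed to 5330 to 21316 CPM in the 3 kinds of bipolar library, at most 25.6 CPM in rods and 212 to 512 CPM in cones. The 3 rod bipolar markers summed to 6340 and 7970 CPM in rod bipolars, against 404 and 281 CPM in cone bipolars. The 7 Müller glia markers were not level among the groups. They summed to 201 to 216 CPM in bipolars at P7, 835 to 1067 CPM at P13 and 4913 to 7697 CPM at P30, against 123 to 290 CPM in rods and 205 to 894 CPM in cones.

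**Figure D1:**
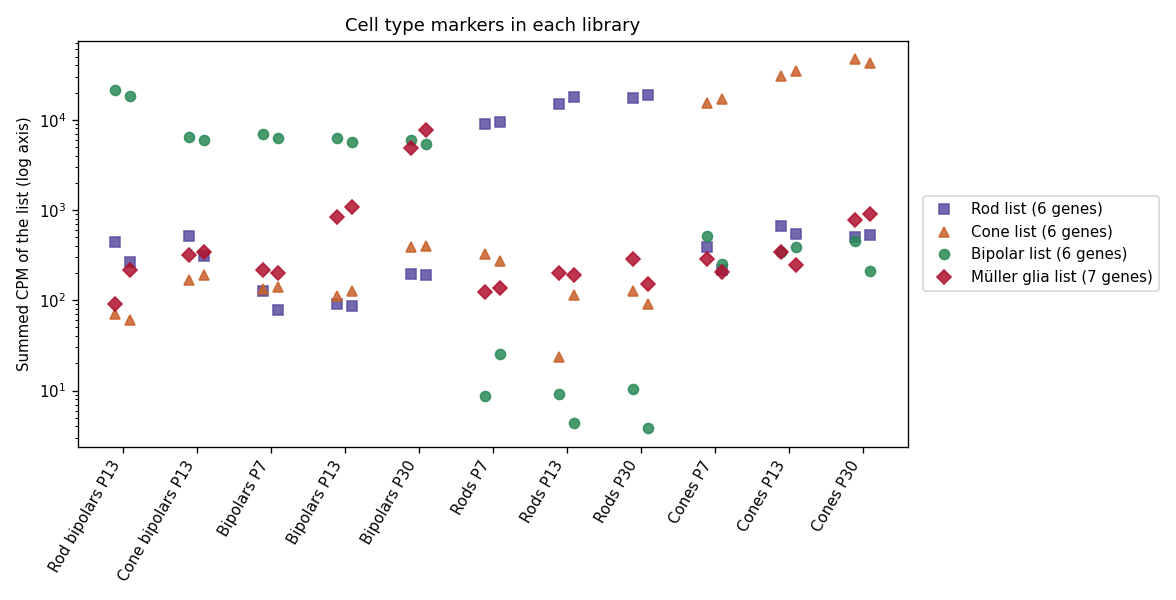
Summed CPM (log axis) of the rod, cone, bipolar and Müller glia marker lists in each of the 22 libraries, 2 points per group. The rod, cone and bipolar lists were each highest in the cells they name, and the Müller glia list reached 4913 and 7697 CPM in the bipolar libraries at P30.

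The 7 genes fell into 3 kinds by where they were highest. Pcdh15, Whrn and Myo7a were higher in photoreceptors than in bipolars at every age. Adgrv1 was highest in rods at P30. Cib2, Ush1g and Clrn1 had their highest group mean in a bipolar group, Cib2 at up to 38.8 CPM and the other 2 at no more than 7.93 CPM in any library. Levels were also taken as CPM per kilobase of exon. That scale assumes even reads along all annotated exons, which was not checked for this linearly amplified RNA. The order of genes depends on it, as in CPM Pcdh15 stood above Cib2 in bipolars at P30 (115 against 18.3 CPM). Per kilobase Cib2 led in bipolars at P30 with 12.8, followed by Pcdh15 with 4.82, Adgrv1 with 2.06 and Ush1g with 1.44. Clrn1 stood at 1.28, Myo7a at 1.20 and Whrn at 0.456. In rods at P30 Pcdh15 led with 27.6 CPM per kilobase, followed by Whrn with 12.1, Adgrv1 with 6.55, Myo7a with 2.78 and Clrn1 with 0.0928, while Cib2 and Ush1g had no reads. In cones at P30 Pcdh15 stood at 91.6 CPM per kilobase, Whrn at 8.18, Cib2 at 6.75, Myo7a at 4.50, Adgrv1 at 1.80, Clrn1 at 0.336 and Ush1g at 0.0121.

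**Figure D2:**
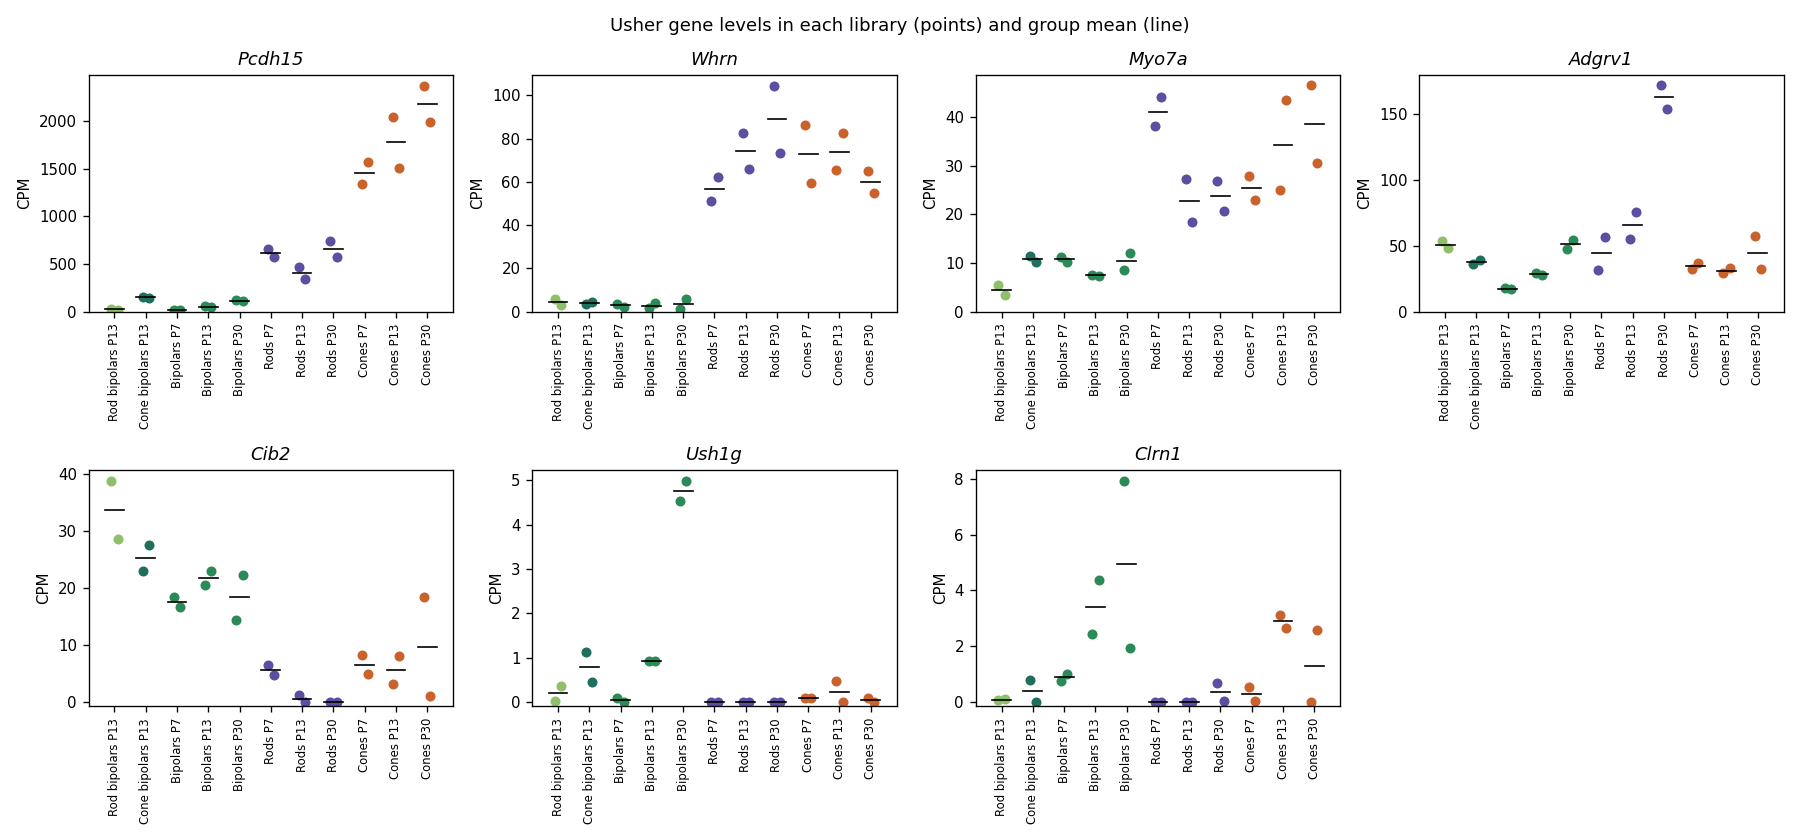
CPM of each of the 7 genes (1 panel each, linear axis) in every library, with points for libraries and a line for the mean of 2. Pcdh15, Whrn and Myo7a are lower in all bipolar groups than in photoreceptors, Adgrv1 stands at 172 and 154 CPM in rods at P30, and Cib2 is highest in rod bipolars.

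The stretches of 250 bases before the transcription start are printed for the 3 genes that were higher in photoreceptors and for Cib2, which ran the other way, so that the upstream sequences can be read beside the levels. They are RefSeq promoters of the build GRCm38.p6, written in the direction of transcription, and 6 of the 7 genes had an entry, with 7 starts in all because Myo7a had more than 1. Capitals mark TGCTGA or its reverse complement TCAGCA, the core of the sites bound by MAF family factors such as the rod factor NRL.
Pcdh15, chr10:73821617-73821866, forward strand: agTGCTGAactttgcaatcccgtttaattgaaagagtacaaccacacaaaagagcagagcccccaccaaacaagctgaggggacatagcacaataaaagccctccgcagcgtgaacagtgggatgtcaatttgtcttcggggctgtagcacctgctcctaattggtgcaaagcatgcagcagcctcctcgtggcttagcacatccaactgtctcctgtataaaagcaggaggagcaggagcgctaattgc
Myo7a, chr7:98119494-98119743, reverse strand: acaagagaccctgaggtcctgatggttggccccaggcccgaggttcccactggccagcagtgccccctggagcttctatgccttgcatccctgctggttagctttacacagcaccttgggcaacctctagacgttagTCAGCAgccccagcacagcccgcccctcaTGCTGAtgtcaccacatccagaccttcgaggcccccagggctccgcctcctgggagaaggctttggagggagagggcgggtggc
Whrn, chr4:63495992-63496241, reverse strand: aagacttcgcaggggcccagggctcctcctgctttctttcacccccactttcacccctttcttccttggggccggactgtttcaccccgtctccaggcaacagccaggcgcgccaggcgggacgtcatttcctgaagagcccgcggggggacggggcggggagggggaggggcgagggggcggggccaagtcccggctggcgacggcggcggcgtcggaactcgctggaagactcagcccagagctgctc
Cib2, chr9:54560191-54560440, reverse strand: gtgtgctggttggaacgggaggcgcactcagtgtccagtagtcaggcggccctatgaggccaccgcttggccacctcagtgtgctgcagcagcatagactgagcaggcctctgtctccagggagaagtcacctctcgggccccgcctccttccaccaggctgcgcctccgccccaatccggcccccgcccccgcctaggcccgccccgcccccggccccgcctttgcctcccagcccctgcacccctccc
TGCTGA was found at -248 to -243 bases from the Pcdh15 start. At the printed Myo7a start it was found at -84 to -79 and, as TCAGCA, at -113 to -108. The other Myo7a start, at 98109248, is not printed and had no match on either strand. On both strands this motif was present in 16.1% of the 32851 promoters in the RefSeq table. TAATCC, the core bound by the photoreceptor factor CRX, was found on neither strand at any of the 7 starts and is held by 6.25% of all promoters. AGGTCA, a nuclear receptor half-site, was found in Adgrv1 at -237 to -232 and is held by 14.0% of all promoters. The upstream sequence of Whrn is 69.6% G and C with 21 CpG pairs, that of Cib2 71.2% with 15 and that of Pcdh15 50.4% with 6. The printed Myo7a sequence is 63.2% with 6, and that of its other start is 57.6% with 4. The printed Pcdh15 start lies inside the gene as GENCODE draws it, and the expression values do not tell which start was used.

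Pcdh15 encodes protocadherin 15, the cadherin at the lower end of the tip link that gates mechanotransduction in hair cells. The gene lies on chromosome 10 from 73099342 to 74649737 on the forward strand (GRCm38, GENCODE M21). Per kilobase of exon it was the most abundant of the 7 genes in every photoreceptor group, with its highest levels in cones. Bipolars held 18.6 and 15.7 CPM at P7, 53.7 and 50.2 CPM at P13, and 123 and 107 CPM at P30. Rods held 652 and 571 CPM at P7, 470.4 and 338 CPM at P13, and 744 and 569.5 CPM at P30. Cones held 1343 and 1572 CPM at P7, 2044 and 1508 CPM at P13, and 2366 and 1992 CPM at P30. At each age the 3 cell types did not overlap, with cones highest and bipolars lowest.

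Pcdh15 was lower in rods than in cones at each age, by a log2 fold change of -1.25 ± 0.21 at P7 (SE, n = 2 libraries each, adjusted p = 8.9e-04 in limma), -2.14 ± 0.21 at P13 (adjusted p = 4.0e-06) and -1.74 ± 0.21 at P30 (adjusted p = 2.8e-05). With plain read totals in place of the deposited scaling, the P30 difference was -1.13. The cone libraries at P30 held 38.7% and 28.6% mitochondrial reads, the highest shares of all libraries. With only rods and cones of 1 age in the fit, the adjusted p was 0.0734 at P13 and 0.0553 at P30. Bipolars were lower than the mean of the 2 photoreceptor types, with -5.78 ± 0.19 at P7, -4.01 ± 0.19 at P13 and -3.38 ± 0.19 at P30 (adjusted p = 1.4e-11, 3.6e-10 and 3.0e-09 in limma). The difference was smaller at each later age. In bipolars Pcdh15 was higher at P13 than at P7 by 1.61 ± 0.21 (adjusted p = 3.0e-04) and higher at P30 than at P13 by 1.14 ± 0.21 (adjusted p = 0.0104). The change over P7 to P30 was 2.74 in bipolars, 0.09 in rods and 0.58 in cones on the log2 scale, and the test of the difference between bipolars and photoreceptors gave 2.41 ± 0.26 (adjusted p = 3.6e-05 in limma). The bipolar step over P13 to P30 did not hold with voom weights (adjusted p = 0.0681), with plain read totals (0.98) or without bipolar replicate 2 at P13, 1 at P30 or 2 at P30 (adjusted p = 0.122, 0.0638 and 0.0605), and the step over P7 to P13 did not hold with voom weights (adjusted p = 0.129). The Müller glia list was also higher at each later age in the same libraries, and its part in the Pcdh15 change was not tested.

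Among bipolars at P13, Pcdh15 stood at 27.0 and 19.4 CPM in rod bipolars and at 154 and 144 CPM in cone bipolars. The subtypes did not overlap, and rod bipolars were lower, with a log2 fold change of -2.70 ± 0.21 (limma, adjusted p = 1.4e-06). This was the 1 called gene among the 7 in that comparison, in which 4.68% of all tested genes were called and 3.17% were called lower. The level in cone bipolars was 8.38% of that in cones of the same age, while the summed cone markers there were 0.548% of theirs. It was 36.8% of the level in rods, while the summed rod markers were 2.52% of theirs. In rod bipolars Pcdh15 was at 1.31% of the cone level and 5.74% of the rod level, beside 0.202% for cone markers and 2.15% for rod markers. Over bipolars at P7, P13 and P30 it was at 1.18%, 2.93% and 5.26% of the cone level, beside 0.845%, 0.365% and 0.870% for cone markers.

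Myo7a encodes the unconventional myosin that carries opsin and other cargo along the connecting cilium and anchors tip links in the ear. It lies on chromosome 7 from 98051060 to 98119524 on the reverse strand. In bipolars it stood at 11.3 and 10.2 CPM at P7, 7.61 and 7.42 CPM at P13, and 8.54 and 12.1 CPM at P30. In rods it stood at 38.1 and 44.2 CPM at P7, 27.2 and 18.4 CPM at P13, and 26.9 and 20.8 CPM at P30. Cones held 27.9 and 23.0 CPM at P7, 25.0 and 43.4 CPM at P13, and 46.6 and 30.6 CPM at P30. Every bipolar library lay below every photoreceptor library. Rods were above cones at P7 and below them at P30 without overlap, and the types overlapped at P13.

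In bipolars Myo7a was lower than in photoreceptors (the mean of rods and cones), with differences of -1.59 ± 0.33 at P7, -1.85 ± 0.33 at P13 and -1.56 ± 0.33 at P30 (limma, adjusted p = 0.0018, 3.9e-04 and 0.0015). Rods and cones were not called different at any age, with rods over cones at 0.69 ± 0.38, -0.56 ± 0.38 and -0.67 ± 0.38 from P7 to P30. Rods at P7 held the highest group mean, and neighbours in the order of the 6 photoreceptor groups all overlapped. In rod bipolars Myo7a stood at 5.47 and 3.48 CPM and in cone bipolars at 11.4 and 10.25 CPM at P13. These did not overlap, and the difference of -1.31 ± 0.38 was not called (limma, adjusted p = 0.0571).

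Whrn encodes whirlin, a PDZ scaffold that binds the giant adhesion receptor. It lies on chromosome 4 from 63414910 to 63495991 on the reverse strand. Bipolars held 3.58 and 2.09 CPM at P7, 1.503 and 3.88 CPM at P13, and 1.06 and 5.62 CPM at P30. Rods held 51.2 and 62.1 CPM at P7, 82.6 and 66.01 CPM at P13, and 104 and 73.5 CPM at P30. Cones held 86.2 and 59.3 CPM at P7, 65.3 and 82.6 CPM at P13, and 65.1 and 54.9 CPM at P30. Neighbours in the order of the photoreceptor groups overlapped. Rods and cones overlapped at P7 and P13, while at P30 rods were above cones without overlap. Rods at P7 were below rods at P13 and P30 without overlap. The lowest photoreceptor library was above the highest bipolar library.

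In bipolars Whrn was lower than in photoreceptors, with differences of -4.53 ± 0.55 at P7, -4.93 ± 0.55 at P13 and -4.88 ± 0.55 at P30 (limma, adjusted p = 1.4e-05, 4.8e-06 and 5.4e-06). Rods over cones gave -0.34 ± 0.63, 0.01 ± 0.63 and 0.55 ± 0.63 from P7 to P30, none of them called. Rod bipolars held 5.70 and 2.82 CPM and cone bipolars 3.66 and 4.42 CPM, with a difference of -0.0049 ± 0.63. Neither the step over P7 to P13 nor that over P13 to P30 was called in rods, cones or bipolars.

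Ush1g encodes SANS, a scaffold that binds harmonin and MYO7A. It lies on chromosome 11 from 115315192 to 115322041 on the reverse strand, inside the span of Otop2 on the other strand. Reads from any exon sequence that the pair shares cannot be told apart without strand. It was at or near 0 in photoreceptors. Bipolars held 2 and 0 reads at P7, 19 and 19 at P13 (0.921 CPM in each), and 149 and 134 at P30 (4.53 and 4.99 CPM). Rods held 0 reads in all 6 libraries, and cones held 5 and 5 reads at P7, 20 and 0 at P13, and 2 and 0 at P30. Rod bipolars held 1 and 7 reads and cone bipolars 29 and 12. Bipolars at P30 were the 1 group in which Ush1g reached 1 CPM in both libraries, and it entered the tests through that group alone.

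In bipolars at P30 the mean of Ush1g was at least 155-fold higher than in rods, with rods set at the floor of 3 reads over both libraries, and at P13 it was at least 20.9-fold higher. Against the mean of rods and cones the fitted log2 difference was 0.01 ± 1.63 at P7, 5.49 ± 1.63 at P13 (limma, adjusted p = 0.0139) and 8.46 ± 1.63 at P30 (adjusted p = 6.9e-04), where the size depends on the value given to 0 reads. With 1 added to each CPM these were 0.80 at P13 and 2.50 at P30. The P13 call did not hold without bipolar replicate 1 or 2 (adjusted p = 0.0740 and 0.0798) or with only bipolars, rods and cones of P13 fitted (adjusted p = 0.0776). The test of the P7 to P30 change in bipolars against photoreceptors gave 8.45 ± 2.30 (adjusted p = 0.0252), and did not hold without bipolar replicate 2 at P7, 1 at P30 or 2 at P30 (adjusted p = 0.167, 0.0681 and 0.0917). The bipolar libraries at P30 were also those with the highest Müller glia sums, with 110.7 to 169 CPM for 4 haemoglobin genes and 42.2 to 123 CPM for 3 microglia markers, and the part of these in the Ush1g level was not tested.

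Adgrv1 encodes the giant adhesion receptor of the ankle links in hair cells and of the fibres around the photoreceptor cilium. It lies on chromosome 13 from 81095068 to 81633154 on the reverse strand. Part of its exon sequence lies within the span of the antisense gene 9330111N05Rik, which ends at 81128864. Reads from any exon sequence shared there cannot be told apart without strand. It was the one of the 7 genes called higher in rods than in cones. Bipolars held 17.9 and 17.1 CPM at P7, 29.7 and 28.0 CPM at P13, and 47.9 and 54.5 CPM at P30. Rods held 31.9 and 56.9 CPM at P7, 55.1 and 76.0 CPM at P13, and 172 and 154 CPM at P30. Cones held 32.5 and 36.6 CPM at P7, 29.5 and 32.9 CPM at P13, and 57.7 and 32.1 CPM at P30. Rods and cones overlapped at P7 and did not overlap at P13 or P30, and the 2 rod libraries at P30 were above all 20 others.

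Rods over cones gave 0.31 ± 0.29 at P7, which was not called, 1.05 ± 0.29 at P13 (limma, adjusted p = 0.0146) and 1.92 ± 0.29 at P30 (adjusted p = 2.0e-04). The P7 to P30 change was 1.93 in rods and 0.32 in cones on the log2 scale, and the test of that difference gave 1.61 ± 0.41 (adjusted p = 0.0211). The P13 call did not hold without rod replicate 2 (0.82, adjusted p = 0.111) or cone replicate 1 (0.97, adjusted p = 0.0771), with array weights (adjusted p = 0.101), or with totals without mitochondrial transcripts (0.85). Fitted on those groups alone, the adjusted p was 0.142 at P13, 0.0853 at P30 and 0.128 for the difference of changes. The difference of changes also missed the threshold without rod replicate 1 at P7 or at P30, cone replicate 1 or 2 at P7, or cone replicate 2 at P30 (adjusted p = 0.0838, 0.0765, 0.0576, 0.0676 and 0.0551). In rods Adgrv1 was higher at P30 than at P13 by 1.33 ± 0.29 (adjusted p = 0.0065), a call lost without rod replicate 1 at P30 (adjusted p = 0.0606), with array weights (0.0725) and when fitted on those groups alone (0.180).

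Against the mean of rods and cones, Adgrv1 in bipolars stood at -1.13 ± 0.25 at P7 (limma, adjusted p = 0.0031). It stood at -0.64 ± 0.25 at P13 (adjusted p = 0.0543) and -0.71 ± 0.25 at P30 (adjusted p = 0.0324). The later ages were not called, and the P30 difference was under the fold threshold only. The P7 value was -0.98 with plain read totals, -0.99 with totals without mitochondrial transcripts, -0.92 without rod replicate 2, and missed the threshold with voom weights (adjusted p = 0.0544). Rod bipolars held 53.7 and 48.1 CPM and cone bipolars 36.3 and 39.2 CPM at P13, which did not overlap and were not called different (0.43 ± 0.29). The change over P7 to P30 in bipolars was 1.55, and neither of its steps was called.

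Clrn1 encodes clarin-1, a small tetraspan-like membrane protein that hair cells need. It lies on chromosome 3 from 58844028 to 58885340 on the reverse strand. It was sparse throughout and uneven between libraries of a group. Bipolars held 16 and 18 reads at P7, 50 and 90 at P13, and 261 and 52 at P30 (7.93 and 1.94 CPM). Rods held 0 and 0 reads at P7, 0 and 0 at P13, and 30 and 2 at P30. Cones held 29 and 1 reads at P7, 135 and 104 at P13 (3.13 and 2.65 CPM), and 0 and 88 at P30. In cones at P30 and in the cone bipolars of P13, with 20 and 0 reads, 1 library of the pair had none, and rod bipolars held 2 and 2 reads. Clrn1 entered the tests through 3 groups, cones at P13 and bipolars at P13 and P30.

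In bipolars the Clrn1 mean was at least 28.0-fold higher than in rods at P7 and at least 77.2-fold higher at P13, with rods at the floor of 3 reads over both libraries. Rods at P13 were lower than cones at a fitted -8.63 ± 2.51 (limma, adjusted p = 0.0191), with the cone mean at least 65.7-fold above the rod floor. That call did not hold without rod replicate 2, cone replicate 1 or cone replicate 2 (adjusted p = 0.0697, 0.0749 and 0.0757) or with array weights (adjusted p = 0.232), and with 1 added to each CPM the difference was -1.96. Bipolars over the mean of rods and cones gave 4.91, 4.49 and 4.66 from P7 to P30, each ± 2.17, with adjusted p = 0.105, 0.112 and 0.0947, so none was called.

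Cib2 encodes a small calcium and integrin binding protein that is part of the hair cell transduction complex and was proposed as an Usher gene. It lies on chromosome 9 from 54544794 to 54560218 on the reverse strand, and its 3′ end overlaps Sh2d7 on the other strand. Reads from the overlap cannot be told apart without strand. Rod bipolars held the most, with 38.8 and 28.5 CPM, and cone bipolars held 23.0 and 27.6 CPM. These subtypes were not called different (0.40 ± 1.67, adjusted p = 0.967 in limma). All 10 bipolar libraries of any kind lay above 14 CPM. Bipolars held 18.4 and 16.7 CPM at P7, 20.5 and 22.9 CPM at P13, and 14.4 and 22.2 CPM at P30. Rods held 6.46 and 4.76 CPM at P7, 1.16 and 0 CPM at P13 (33 and 0 reads), and no reads in either library at P30. Cones held 8.14 and 4.90 CPM at P7, 3.06 and 8.11 CPM at P13, and 18.4 and 0.971 CPM at P30. In bipolars neither the step over P7 to P13 nor that over P13 to P30 was called, rods at P30 had no reads, and the 2 cone libraries at P30 lay far apart.

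In bipolars the P30 mean of Cib2 was at least 598-fold higher than in rods of that age, with rods at the floor of 3 reads over both libraries. Against the mean of rods and cones the fitted difference was 1.57 ± 1.45 at P7, 4.998 ± 1.45 at P13 (limma, adjusted p = 0.0121) and 6.67 ± 1.45 at P30 (adjusted p = 0.0017). With 1 added to each CPM the called values were 2.92 and 2.93. The P13 call did not hold without bipolar replicate 1 or 2 (adjusted p = 0.0672 and 0.0819) or with only bipolars, rods and cones of P13 fitted (adjusted p = 0.146), and it was 3.17 without rod replicate 2.

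In rods Cib2 was lower than in cones, at a fitted -5.76 ± 1.67 at P13 (limma, adjusted p = 0.0190) and -9.19 ± 1.67 at P30 (adjusted p = 8.9e-04), with -0.19 ± 1.67 at P7. With 1 added to each CPM these were -2.05 at P13 and -2.63 at P30. The P13 difference rested on rod replicate 2, which had no reads. It was -2.10 without that library (adjusted p = 0.257) and -9.42 without rod replicate 1, and it missed the threshold without cone replicate 2 (adjusted p = 0.118). Fitted on rods and cones of that age alone, the adjusted p was 0.405 at P13 and 0.0920 at P30. In rods themselves Cib2 was lower at P13 than at P7, at a fitted -5.91 ± 1.67 (adjusted p = 0.0251), again with -2.25 without rod replicate 2 at P13 (adjusted p = 0.245) and -9.57 without replicate 1. That call was also lost without rod replicate 1 or 2 at P7 (adjusted p = 0.0885 and 0.0904), with array weights (0.0803) and when fitted on those groups alone (0.545), and with 1 added to each CPM it was -2.16. The rod mean at P7 was at least 183-fold higher than at P30.

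The P7 to P30 change of Cib2 was -9.57 in rods and -0.58 in cones on the fitted log2 scale, and the test of that difference gave -9.00 ± 2.36 (limma, adjusted p = 0.0242). With 1 added to each CPM it was -2.46 (adjusted p = 0.141). It missed the threshold without rod replicate 1 at P7 or P30 (adjusted p = 0.0634 and 0.0660), cone replicate 1 or 2 at P7 (0.0676 and 0.0731) or cone replicate 1 at P30 (0.0951), and when fitted on those groups alone (0.0691). Cones held 212 to 512 CPM of the bipolar marker list, and rods at most 25.6 CPM. The part of bipolar RNA in the cone level of Cib2 was not tested.

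**Figure D3:**
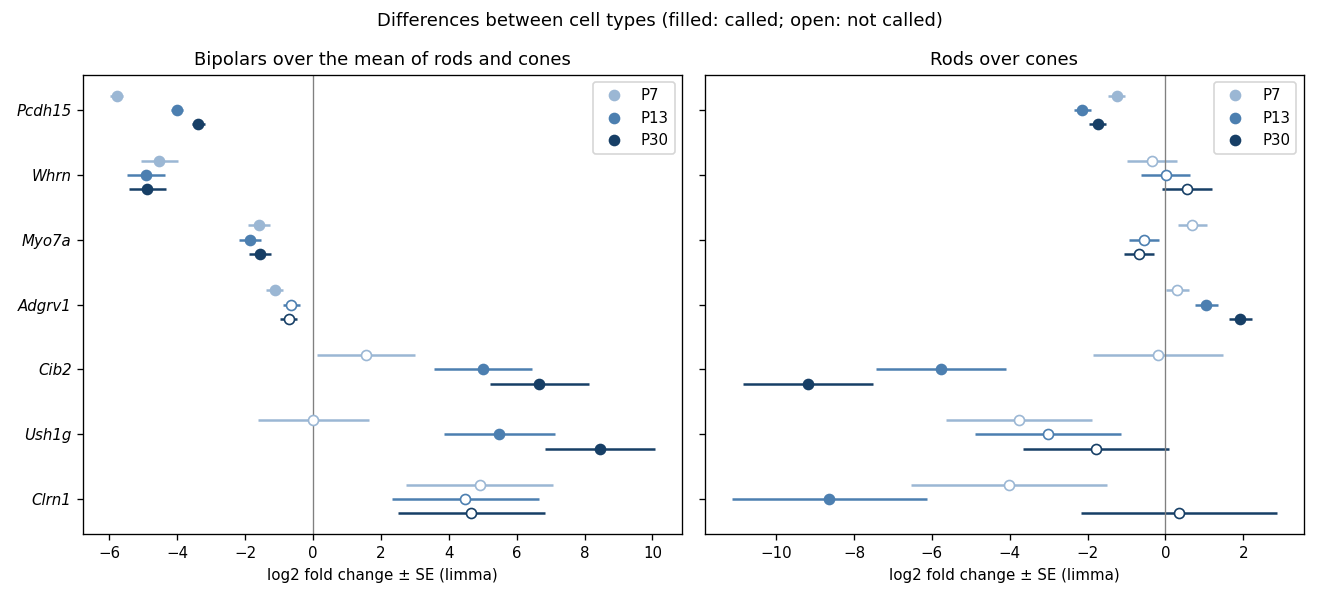
Log2 fold changes with SE from limma for the 7 genes, in bipolars over the mean of rods and cones (left) and in rods over cones (right), at P7, P13 and P30. Filled points were called and open points were not, and the wide bars of Cib2, Ush1g and Clrn1 come with libraries that held few or no reads.

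Counted over the 7 measured genes, rods against cones gave 1 call at P7, 4 at P13 and 3 at P30, where 12.8%, 21.2% and 20.0% of all tested genes were called. The P7 call was lower in rods, as were 9.52% of all tested genes. At P13 there was 1 call higher in rods and 3 lower, beside 7.10% and 14.1% of all tested genes, and at P30 there was 1 higher and 2 lower, beside 9.98% and 10.0%. Bipolars against photoreceptors gave 0 calls higher and 4 lower at P7, beside 22.7% of all tested genes called, 11.6% higher and 11.1% lower. At P13 they gave 2 higher and 3 lower, beside 33.4% called, 20.6% higher and 12.8% lower. At P30 they again gave 2 higher and 3 lower, beside 35.6% called, with 3026 of the 13405 tested genes higher and 1743 lower. All photoreceptor libraries of an age serve both kinds of comparison, which are therefore not independent. The median log2 fold change of the 7 in bipolars over photoreceptors was -1.13, -0.64 and -0.71 from P7 to P30, against 0.12, 0.18 and 0.13 over all tested genes. In rods over cones it was -0.34, -2.14 and -0.67, against -0.16, -0.11 and 0.14. Ush1g and Clrn1 entered the tests through the groups in which they were high, so these counts and medians describe the 7 genes and support nothing further. Cib2 entered through 8 groups, rods and cones at P7 among them.

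Over successive ages few of the 7 moved. Rods gave 1 call at P13 against P7, Cib2, where 12.6% of all tested genes were called and 7.02% were called lower. The step to P30 from P13 gave 1, Adgrv1, where 12.0% were called and 6.74% were called higher. Pcdh15 in rods was 0.71 ± 0.21 higher at P30 than at P13 with an adjusted p of 0.0373 in limma, under the fold threshold. Cones gave 0 calls at either step in limma (0.440% and 3.20% of all genes), with 0 of the 7 at an unadjusted p under 0.05 and 0 called with voom weights. Bipolars gave 1 call at each step, Pcdh15 both times, where 2.98% and 1.86% of all tested genes were called and 2.30% and 1.40% were called higher. The P7 to P30 change differed between rods and cones for 2 genes, 1 more positive in rods and 1 more negative, beside 10.6% of all tested genes, 6.04% and 4.57%. It differed between bipolars and photoreceptors for 2, both more positive in bipolars, beside 11.1% of all tested genes and 6.86% more positive. In libraries of many sorted cells, fewer cells that hold a transcript and less of it per cell cannot be told apart.

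Across the 11 group means, Pcdh15, Myo7a and Whrn ran together, with Pearson's r of 0.90 for Pcdh15 and Myo7a, 0.88 for Pcdh15 and Whrn, and 0.88 for Myo7a and Whrn. Cib2 and Adgrv1 stood at r = -0.80, and Ush1g and Clrn1 at 0.63. In rods at P13 and P30 Adgrv1 had its highest means (log2 CPM of 6.02 and 7.35) and Cib2 its lowest (-3.44 and -7.10). The r of Cib2 and Adgrv1 therefore depends on the value given to 0 reads, and it does not describe the groups outside these. These values share libraries, and are descriptions over 11 points. Among all other genes that reached a log2 CPM of 3 in some group, the pattern most like that of Whrn was that of Prcd, a protein of photoreceptor discs (r = 0.990), followed by March1 (0.990) and Pex5l (0.989). The patterns most like that of Pcdh15 were those of Dixdc1 (0.974), Me1, a malic enzyme (0.973), and Thrb, the thyroid hormone receptor that sets cone opsin choice (0.970). Among the patterns close to that of Myo7a were those of Rph3al (0.966) and Rbp3, the retinoid-binding protein of the photoreceptor matrix (0.959). Nearest to Adgrv1 were Acp6 (0.957), Amd1 (0.943) and the kinesin Kif1b (0.934). Cib2 was most like Sqstm1, an autophagy receptor (0.982), Hid1 (0.981) and Nudt11 (0.976). Ush1g was most like Galnt18 (0.959), Ccdc92 (0.955) and Lrrc3b (0.954), and Clrn1 most like Cgnl1 (0.914), Sgk3 (0.878) and Gbp7 (0.864).

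Lists of companion genes were set beside the 7. Of 11 partners and related deafness and blindness genes, 10 were tested. In bipolars against photoreceptors 1 rose and 2 fell at P7, 2 rose and 2 fell at P13, and 2 rose and 3 fell at P30, beside 22.7%, 33.4% and 35.6% of all tested genes called, so these shares were near the background. One of the higher calls at P13, Myo15, was called in 16 of 30 alternatives, and one at P30, Espn, entered the tests through bipolars at P30 alone. In rods against cones 3 of the 10 fell at P7, beside 9.52% of all tested genes. At P30 Arsg rose, with 43.6 and 56.3 CPM in rods against 21.2 and 20.3 CPM in cones, a call made in 17 of 30 alternatives. It was lost with the replicate block, with array weights, with only the compared groups fitted and without either rod or either cone library of that age, among others, with an adjusted p of up to 0.227. Arsg, a lysosomal sulfatase linked to a late form of Usher syndrome, was lower in bipolars, with log2 fold changes of -1.82 ± 0.37, -2.13 ± 0.37 and -3.61 ± 0.37 from P7 to P30 (limma, adjusted p = 0.0016, 3.3e-04 and 2.1e-06), a call that at P7 was lost with voom weights. Cep250, a centrosome protein, was lower, with -1.91 ± 0.26, -2.01 ± 0.26 and -3.06 ± 0.26. Abhd12, a lipid hydrolase, was higher by 1.11 ± 0.27, 1.18 ± 0.27 and 1.45 ± 0.27, the P7 call being lost without rod replicate 1, cone replicate 2 or bipolar replicate 1. Eps8, an actin regulator of stereocilia, stood at 35.8 and 33.6 CPM in rods and 139 and 167 CPM in cones at P7, and rods were lower, with a log2 fold change of -2.14 ± 0.23. Its P7 to P30 change differed between rods and cones by 2.02 ± 0.32 (limma, adjusted p = 0.0013).

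Of 8 genes of the hair cell transduction complex, 4 were measured and 3 tested, and in bipolars against photoreceptors 1 was called higher at P7, 2 at P13 and 2 at P30, with none lower. Of all tested genes 11.6% were called higher at P7, 20.6% at P13 and 3026 of 13405 at P30. The called genes were Lhfpl5 and Tmie, which reached 1 CPM in both libraries only in bipolar groups and entered the tests through those, so the calls describe them and support nothing further. Lhfpl5, which couples the tip link to the channel, held 1.55 and 4.12 CPM in bipolars at P13, against 0 and 0.0252 CPM in rods and 0 and 0 CPM in cones. Tmie, a channel subunit, held 4.32 and 1.84 CPM in bipolars, 0 and 0 CPM in rods and 0 and 0.331 CPM in cones at that age. It stood at 0.324 and 0.605 CPM in rod bipolars and 8.46 and 9.14 CPM in cone bipolars. At P7 Lhfpl5 held 0.977 and 0.791 CPM in bipolars, against 0 and 0 CPM in rods and 0.149 and 0.288 CPM in cones, and that call was lost with 1 added to each CPM and without either bipolar library of that age.

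Of 6 genes of the microvillar adhesion complex, which is built like the tip link, 2 were measured. In bipolars against photoreceptors 1 was called higher and 1 lower at P7 and P13, and 1 lower at P30, beside 22.7%, 33.4% and 35.6% of all tested genes called. The one called higher, Cdhr2, also entered the tests through bipolar groups alone. Cdhr2, a cadherin of the intestinal brush border, held 3.64 and 4.51 CPM in bipolars at P13, against 0 and 0 CPM in rods and 0.417 and 3.06 CPM in cones. Cdhr1, the photoreceptor cadherin at the base of the discs, held 124 and 104 CPM in bipolars at P7, against 2733 and 2529 CPM in rods and 2422 and 2604 CPM in cones. It was lower in bipolars, with log2 fold changes of -4.50 ± 0.14, -3.38 ± 0.14 and -3.77 ± 0.14 from P7 to P30, and, like Pcdh15, lower in rod bipolars (95.3 and 113 CPM) than in cone bipolars (393 and 477 CPM), with -2.06 ± 0.16 (limma, adjusted p = 1.3e-06). Of 6 myosins and their partners 5 were tested, and in bipolars 1 rose and 2 fell at P7 and P13, and 1 rose and 1 fell at P30, beside the same shares of all tested genes. Myrip, which links MYO7A to RAB27A, was lower in bipolars, with log2 fold changes of -3.58 ± 0.26, -1.58 ± 0.26 and -1.15 ± 0.26, the P30 call being lost with plain read totals, at -0.72, and with totals without mitochondrial transcripts. Myo5a was higher by 1.37 ± 0.17, 1.62 ± 0.17 and 1.96 ± 0.17.

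**Figure D4:**
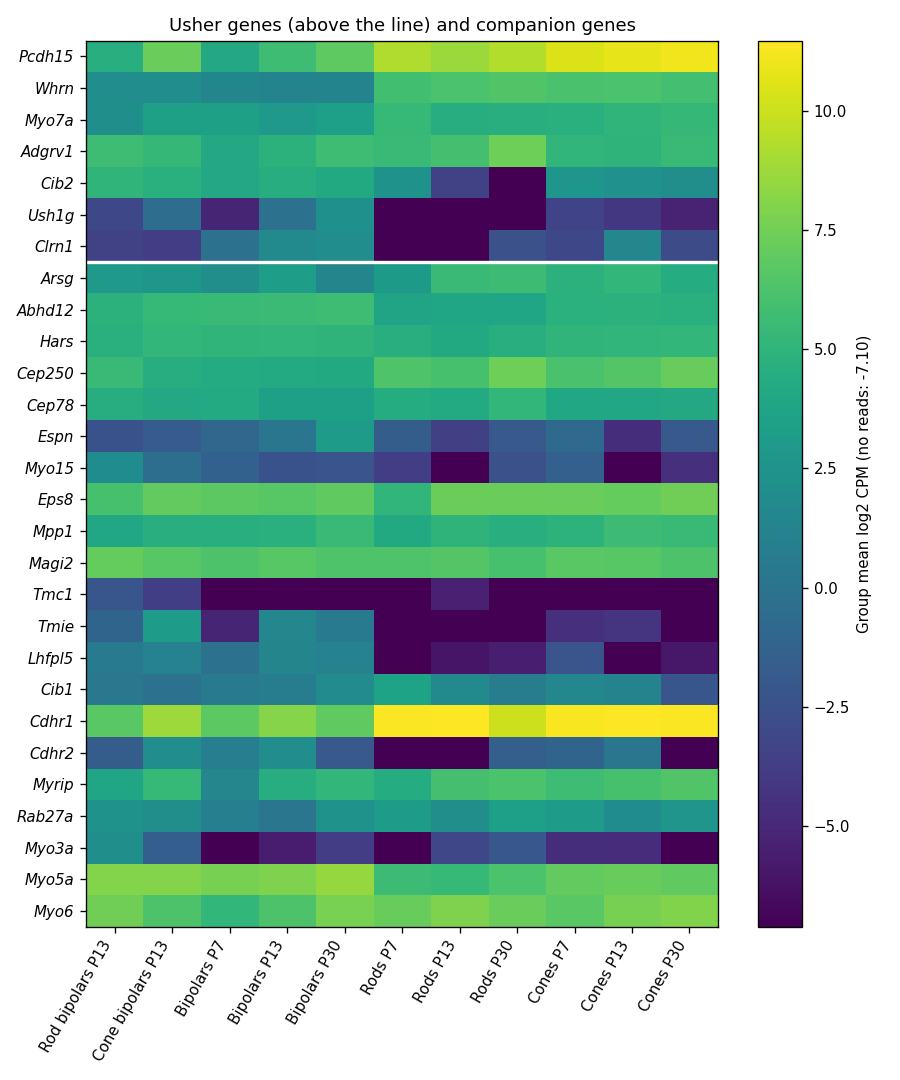
Group mean log2 CPM of the 7 Usher genes (above the white line) and the companion genes (below it) in the 11 groups, with genes of no reads at -7.10. Pcdh15, Whrn, Myo7a and Cdhr1 are brighter in rods and cones, and Cib2 and Lhfpl5 in the bipolar groups. Tmie is brighter in the bipolar groups other than bipolars at P7, which held 2 and 0 reads.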

How the data were processed

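Per the labels' protocols, sorted retinal cells gave RNA that was amplified linearly (RiboAmp) and made into TruSeq RNA libraries. Per the submitters' processing notes, the authors used STAR and edgeR with GRCm38 (mm10). Versions, the read counter, its use of strand and the gene filter are not stated there. The authors deposited log2 CPM for 13812 genes in 22 libraries. A gene without reads stood at -7.10 in every library, and with that floor taken off 100% of values were within 0.01 of whole reads, so CPM and reads in the text are recovered values. Their precision is limited by 14.4 to 54.4 Mreads per library and 2 libraries per group.

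Symbols came from GENCODE M21 for 13785 genes, and the 27 without one were left out. Together they held at most 0.378% of the reads of a library. The fit was made with limma 3.58.1 in R 4.3.3 on the deposited log2 values, with all 22 libraries, a coefficient for each of 11 groups, 11 residual degrees of freedom and an intensity trend. Genes were tested with log2 CPM of at least 0 in both libraries of some group, which left 13405 and removed 380. Tests were two-sided. The steps were tested on simulated data. The members, marker lists and companion lists were chosen with earlier results of these data known. All members are named, with companions by size of called change, and some genes of the companion lists and of the ranking by likeness are not reported here. Alternatives were a pseudocount of 1, no filter, other totals, array weights, a replicate block, fits of the compared groups alone, each library left out and, added after the data were seen, voom weights on the recovered reads. A count test on the recovered reads was not run. Replicate numbers were not used as a pairing in the main fit, and the labels do not say whether libraries of the same number belong together.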

Additional observations from a re-analysis of the deposited data

Results flagged for a closer look

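The change over P7 to P30 differed between cell types for 4 genes, in a limma test of the difference itself with 2 libraries per group. Cib2 differed by -9.00 between rods and cones (adjusted p = 0.0242), with no reads in rods at P30 and with cone libraries of 18.4 and 0.971 CPM at that age. Adgrv1 differed by 1.61 between rods and cones (adjusted p = 0.0211), with 172 and 154 CPM in rods at P30. Pcdh15 differed by 2.41 between bipolars and the mean of rods and cones (adjusted p = 3.6e-05). Ush1g differed by 8.45 in the same comparison (adjusted p = 0.0252), with 149 and 134 reads in bipolars at P30, against 0 reads in rods and 2 and 0 in cones. Ush1g entered the tests through bipolars at P30 alone, the group that makes this difference, and the call was lost without bipolar replicate 2 at P7, 1 at P30 or 2 at P30 (adjusted p = 0.167, 0.0681 and 0.0917 in limma), so it is a description. The Pcdh15 difference lay between 2.28 and 2.69 under the 30 alternatives and held in all of them.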

How the results depend on the processing

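Of 31 called results of single genes, 14 held under all 30 alternatives and 0 changed direction. Those that held under all 30 include Pcdh15, Whrn and Myo7a in bipolars against photoreceptors at each age, and Pcdh15 in rod against cone bipolars.

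The counts of called genes among the 7 that moved by over 1.5 times were these. With 1 added to each CPM there were 2 for bipolars P30 against P13 and 1 for the change between rods and cones. Plain read totals gave 2 for rod against cone bipolars, 2 for rods P13 against P7 and 0 for bipolars P30 against P13, and totals without mitochondrial transcripts gave 2 for rod against cone bipolars. Fits of the compared groups alone, which leave few degrees of freedom, gave 2, 1 and 0 for rods against cones from P7 to P30, and 0 for rods P13 against P7, rods P30 against P13 and the change between rods and cones. Array weights gave 2 for rods against cones at P13, 2 for rod against cone bipolars, 0 for both steps in rods and 2 for bipolars P13 against P7. Voom weights gave 0 for both steps in bipolars.

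With each library left out, the counts ran from 1 to 1, 1 to 4 and 3 to 3 for rods against cones from P7 to P30, and from 3 to 5, 3 to 5 and 5 to 6 for bipolars against photoreceptors. They ran from 1 to 2 for rod against cone bipolars, 0 to 1 and 0 to 2 for the steps in rods, 0 to 0 and 0 to 1 in cones, 1 to 1 and 0 to 1 in bipolars, 0 to 2 for the change between rods and cones, and 1 to 3 for that between bipolars and photoreceptors. The counts over all tested genes, whose shares stand beside those of the 7, moved by over 1.5 times in 26 of 120 pairs of a comparison and a setting, and in 31 of 330 with a library left out, so the shares carry that spread too. A group left with 1 library is assumed to vary like the others.

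The replicate block moved no count of the 7 genes, with 1, 4 and 3 called in rods against cones. Deviations of libraries with the same number correlated at -0.142 to 0.193 over 55 pairs of groups, with 5 above 0.1. The numbers do not show a pairing, and with 2 libraries per group this check cannot exclude one. Plain read totals shifted the median of all genes by up to 0.65 on the log2 scale, in the change between rods and cones. For rods against cones at P30 the shift was 0.60, and 0.13 with totals without mitochondrial transcripts. Cones at P30 held 38.7% and 28.6% mitochondrial reads, against 2.18% to 17.5% in the other libraries. Their scaled totals were 0.608 and 0.711 of the plain totals, against 0.820 to 1.23 elsewhere. At 2 libraries per group the sparse genes Cib2, Ush1g and Clrn1 limit what can be read from sizes, which depend on the value given to 0 reads.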
